A study of Drosophila melanogaster with 30 samples.

Results

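Dopamine genes were examined in whole heads of *D. melanogaster* lines selected for their response to an odorant. The group holds 8 genes, taken by symbol from the count files, of the 17471 genes listed there: *ple* and *Ddc*, which make dopamine, *Vmat* and *DAT*, which move it into vesicles and back into the cell, and the receptors *Dop1R1*, *Dop1R2*, *Dop2R* and *DopEcR*. The genes were picked by symbol rather than by a measured value, though with earlier results of these data known. All 8 passed the filter on low counts. Among them, *ple* alone passed a test over all treatments, which 19.3% of all genes passed, so 1 of 8 is not above the background. *ple* was lowest in the CYC+ lines and highest in the BUT+ lines. Across the lines it followed markers of the head fat body, whose sum is nearly all yolk protein RNA. That relation lay mainly between treatments, and the share of all genes with one as close is not given. *Vmat*, *Dop1R1*, *Dop1R2* and *Dop2R* varied together, though many other genes were as close to them. The receptors followed markers of neurons, with no share of all genes given beside this. *Vmat* followed them less closely: it did not pass by rank correlation, and its r was 0.38 without CYC+ line 1 and BUT- line 1.

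The flies came from an outbred population and were selected over many generations in a T-maze, in which the preference index (PI) compares flies in the odorant arm with flies in the vehicle arm. BUT+ and BUT- lines were selected for attraction to (PI+) and repulsion by (PI-) 2,3-butanedione, CYC+ and CYC- lines likewise for cyclohexanone, and control lines were not selected. No line carries a transgene or an introduced mutation. Each of the 5 treatments had 3 lines, kept as separate populations, and each line gave 2 samples, for 30 libraries. Each sample was a pool of 100 heads from adult females aged 3 to 7 days, so variation between flies was not measured, and the 2 samples of a line share its flies' ancestry.

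In flies, tyrosine hydroxylase, encoded by *ple* (pale), turns tyrosine into DOPA, the rate-limiting step, and dopa decarboxylase (*Ddc*) turns DOPA into dopamine. Dopaminergic neurons carry signals of reward and punishment to the mushroom body, where odors gain a value, while epidermis and wounded cuticle use the same enzymes to make catecholamines that harden and darken the cuticle. The vesicular transporter *Vmat* serves all monoamine neurons, whereas *DAT* takes dopamine back up at dopaminergic terminals.

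Totals ranged from 21194086 to 38621924 counts per library (median 29967406), and the 8 genes had between 263 counts (*DAT*) and 12620 counts (*DopEcR*) in a library. Levels are given as CPM, the read count scaled to a common library size, after TMM normalization, with a treatment's mean and SD taken over its 3 line means. Markers of neurons, photoreceptors, glia, muscle, head fat body and cuticle were present, with no marker of any list at 0 in all libraries. A pair of libraries stood apart. The first sample of CYC+ line 1 was the lowest of the 30 libraries for 5 of the 8 genes (*Vmat* and the 4 receptors), and the second sample of BUT- line 1 was the highest for 6 of the 8 (*Ddc*, *Vmat* and the 4 receptors). *ple* was also low in the former, at 59.5% of its median over 30 libraries (rank 2 from the lowest), and at 83.1% in the latter. The 5 neuron markers (*elav*, *nSyb*, *brp*, *Syt1*, *Syx1A*) summed to 70.2% of their median over 30 libraries in the first of these and to 124% in the second, the lowest and the highest value of all. Other lists moved in them too. In the first sample of CYC+ line 1, photoreceptor markers were the highest of all libraries (124% of their median), glia (87.7%) and cuticle markers (62.1%) the lowest, and muscle markers at 69.2%. In the second sample of BUT- line 1, muscle markers stood at 123% and fat body markers at 47.6%.

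**Figure D1:**
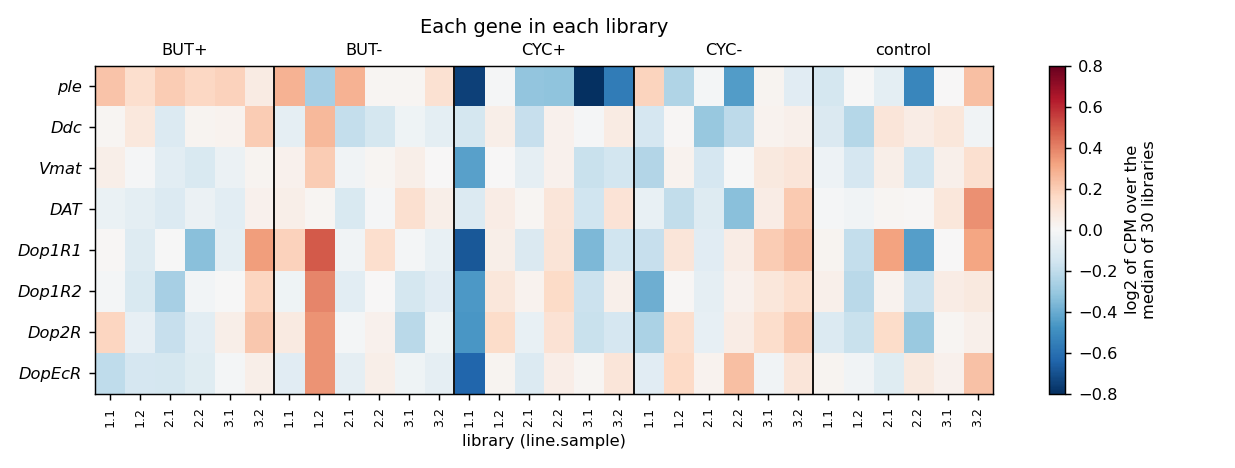
Color gives the log2 ratio of a gene's TMM-normalized CPM in a library (columns, named by line and sample number) to its median over 30 libraries, for the 8 genes (rows). The first sample of CYC+ line 1 is low for *Vmat*, the 4 receptors and *ple*. The second sample of BUT- line 1 is high for *Vmat* and the 4 receptors but not for *ple*, which is low in most CYC+ libraries.

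All 8 genes lie on the minus strand of the release 6 genome: *ple* (FBgn0005626) on 3L from 6713356 to 6719525, *Ddc* (FBgn0000422) on 2L from 19116483 to 19120306, *Vmat* (FBgn0260964) on 2R from 13513132 to 13534251, *DAT* (FBgn0034136) on 2R from 16558567 to 16565238, *Dop1R1* (FBgn0011582) on 3R from 14165379 to 14214810, *Dop1R2* (FBgn0266137) on 3R from 29630304 to 29659984, *Dop2R* (FBgn0053517) on X from 20004680 to 20062706 and *DopEcR* (FBgn0035538) on 3L from 4367649 to 4380387. The counts cover whole genes, exons of all transcripts together. An opposite-strand gene, CG13330, shares 2129 of the 8134 exon bases of *Vmat*, and was itself listed at 0 in every library. *Ddc* shares 88 of its 2797 exon bases with the opposite-strand gene CG10561, which had a mean of 41.8 CPM in the control lines. Whether the counting used strand was not stated, so reads from the shared bases cannot be assigned with certainty.

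Per kb of exon, the synthesis genes and *DopEcR* were the most abundant of the 8, and *DAT* and the other receptors the least. On the scale of CPM per kb, the mean over 15 lines was 65.2 for *DopEcR*, 57.8 for *Ddc*, 40.1 for *ple* and 23.9 for *Vmat*. These levels placed the 4 genes at the 89.3, 87.9, 82.95 and 71.6 percentiles of the 9240 genes tested. The 4 others lay between 3.32 and 4.21 CPM per kb: 4.21 for *DAT*, 4.02 for *Dop1R2*, 3.37 for *Dop1R1* and 3.32 for *Dop2R*. In this order, the ranges of the line means did not overlap between *Ddc* and *ple* (a 1.44-fold difference of means) or between *Vmat* and *DAT* (5.67-fold), and overlapped between all other neighbors. In whole-head RNA, a low level from few cells cannot be told apart from little RNA in each cell.

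The line means of *ple* spread more than those of the other 7 genes. Its coefficient of variation over the 15 lines was 15.8%, above that of 83.9% of the genes tested. *Dop1R1* followed with 11.9%, and the others lay between 6.33% and 8.45%. From the lowest line, CYC+ line 3 at 99.0 CPM, to the highest, BUT+ line 2 at 180 CPM, *ple* differed 1.81-fold.

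Across treatments, *ple* had a mean of 177 ± 3.93 CPM in BUT+, 168 ± 7.40 in BUT-, 149 ± 11.2 in CYC-, 151 ± 21.4 in control and 117 ± 15.7 in CYC+ (SD, n = 3 lines each). The 6 BUT+ libraries lay between 165 and 185 CPM (median 178) and the 6 CYC+ libraries between 91.0 and 157 CPM (median 117). BUT+ and CYC+ therefore did not overlap in any library, a separation found for 5.1% of all genes tested. The 6 control libraries ranged from 110 to 187 CPM (median 154), the 6 BUT- libraries from 131 to 192 CPM (median 166) and the 6 CYC- libraries from 116 to 179 CPM (median 152). Each of these overlapped CYC+ in single libraries. By line, the CYC+ means were 126, 127 and 99.0 CPM, all below the lowest control line at 130 CPM, a separation of line means found for 18.5% of all genes tested between control and CYC+. Without the first sample of CYC+ line 1 the CYC+ mean was 128 ± 29.2 CPM, and this separation was lost. The line means of *ple* were apart in 6 of the 10 pairs of treatments, in each with CYC+ or CYC- on the lower side. Besides control and CYC+, these pairs were BUT+ and CYC+ (25.6% of all genes apart), BUT+ and CYC- (23.2%), BUT- and CYC+ (21.2%), BUT- and CYC- (10.9%), and CYC- and CYC+ (14.6%). The separation of CYC- and CYC+ was also lost without that library, which left 4 pairs.

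Over all 5 treatments, *ple* was the only gene of the 8 to change (joint edgeR quasi-likelihood F test, Benjamini-Hochberg adjusted p = 0.0143, F = 6.79). That test called 19.3% of all genes, so 1 of 8 is not above the background. In the same test, adjusted p for the other 7 lay between 0.358 and 0.984. In the 6 comparisons of the study, *ple* passed the threshold of 0.1 in a single one, CYC+ vs. control, where it fell by 0.37 on the log2 scale (SE 0.12, edgeR quasi-likelihood test, Benjamini-Hochberg adjusted p = 0.0877). In that comparison 7.02% of all genes were called, 3.73% lower in CYC+, so 1 of 8 is little above the background. CYC+ vs. CYC- differed by a similar size without passing (log2 fold change -0.35, SE 0.12, edgeR, adjusted p = 0.187, with 1.54% of all genes called). BUT+ vs. control had a log2 fold change of 0.23 (SE 0.12, edgeR, adjusted p = 0.391), BUT- vs. control one of 0.15 (SE 0.12, edgeR, adjusted p = 0.576), and CYC- vs. control one of -0.02 (SE 0.12, edgeR, adjusted p = 0.968).

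The *ple* call in CYC+ vs. control was fragile. Without the first sample of CYC+ line 1 the log2 fold change was -0.31, and edgeR's adjusted p rose to 0.188, within a range of 0.0446 to 0.585 over the 31 alternatives. It did not pass either with the 2 libraries of a line summed (edgeR, adjusted p = 0.205), with line as a random block (limma, adjusted p = 0.129) or with line number as a block (edgeR, adjusted p = 0.102). First and second samples were also fitted apart. Among first samples *ple* averaged 104 ± 19.95 CPM in CYC+ and 151 ± 7.36 in control (SD, n = 3), a log2 fold change of -0.53 with an edgeR adjusted p of 0.0592. Among second samples the values were 130 ± 25.4 and 152 ± 39.0 CPM, a log2 fold change of -0.23 with an edgeR adjusted p of 0.585.

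A direct comparison of the lines selected for attraction, BUT+ vs. CYC+, was added after the data had been seen. It gave the largest difference of *ple*, a log2 fold change of 0.60 (SE 0.12, 95% interval 0.34 to 0.85, edgeR quasi-likelihood test, Benjamini-Hochberg adjusted p = 0.00370), and none of the other 7 genes passed. In this comparison 16.5% of all genes were called, 7.85% higher in BUT+. The call stood without the first sample of CYC+ line 1 (log2 fold change 0.54, edgeR, adjusted p = 0.00819) and in 30 of 31 alternatives, with adjusted p from 0.000113 to 0.226. The exception was the fit to second samples alone (0.41, edgeR, adjusted p = 0.226). BUT- vs. CYC- did not show it (log2 fold change 0.17, edgeR, adjusted p = 0.761, 0.26% of all genes called). The difference between PI+ vs. PI- in BUT and PI+ vs. PI- in CYC was 0.42 for *ple* (SE 0.17), with an unadjusted p under 0.05 that did not pass after adjustment (edgeR, adjusted p = 0.441, 0.53% of all genes called).

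**Figure D2:**
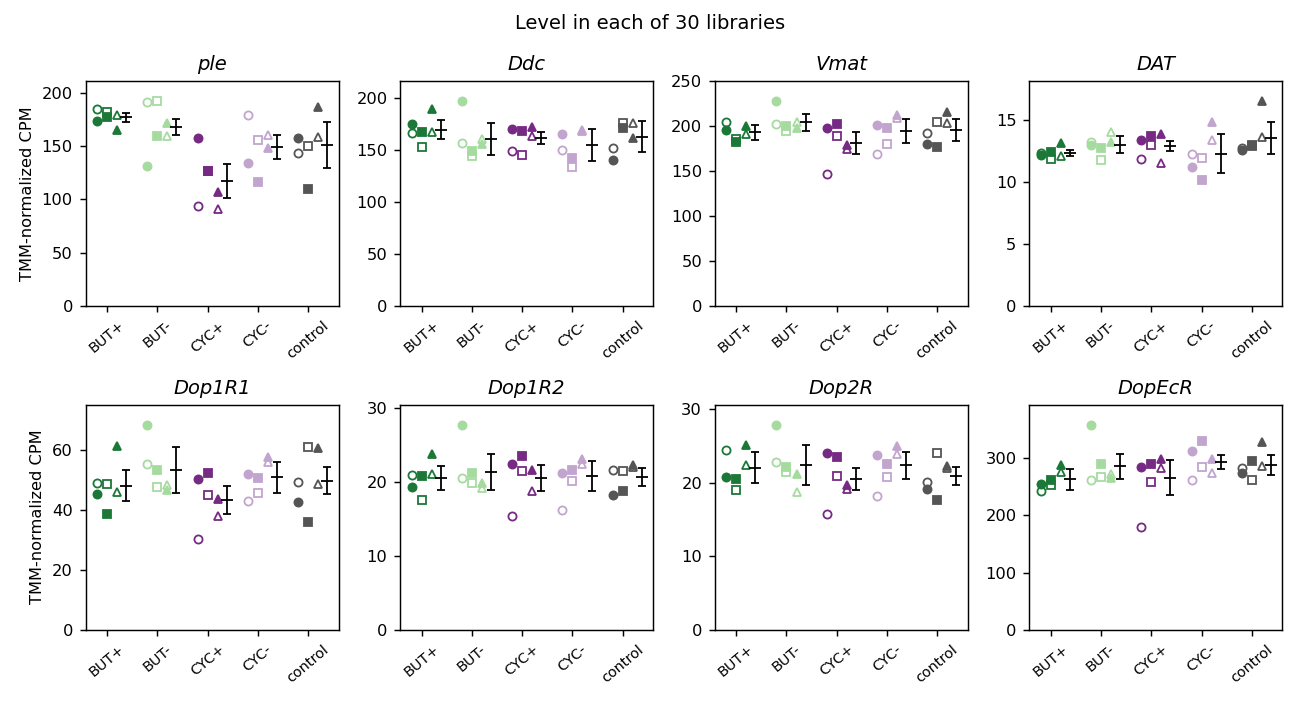
TMM-normalized CPM of the 8 genes in each library, by treatment. Circles, squares and triangles are lines 1, 2 and 3, open symbols first samples and filled symbols second samples, and black bars give the mean and SD of 3 line means. For *ple* the BUT+ libraries (165 to 185 CPM) lie above all CYC+ libraries (91.0 to 157 CPM), while the treatments of the other genes overlap.

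Genes around tyrosine hydroxylase, for its substrate, its cofactor tetrahydrobiopterin and its regulation, were compared between BUT+ and CYC+. Of the 7 genes of this list, 5 rose and none fell, where 16.5% of all genes were called and 7.85% were higher in BUT+. The median log2 fold change was 0.19 over the list against -0.02 over all genes. *Hn* (Henna), the phenylalanine hydroxylase that makes tyrosine, rose by 0.56 (SE 0.19, edgeR, adjusted p = 0.0644), and *Dhpr*, which regenerates the cofactor, by 0.47 (SE 0.13, edgeR, adjusted p = 0.0175). The pterin enzymes *pr* (purple) and *Sptr* rose by 0.28 (SE 0.06, edgeR, adjusted p = 0.00546) and 0.17 (SE 0.06, edgeR, adjusted p = 0.0897). *Catsup*, a negative regulator of tyrosine hydroxylase, rose by 0.14 (SE 0.05, edgeR, adjusted p = 0.0666). *Pcd* (0.19, edgeR, adjusted p = 0.113) and *Pu*, the GTP cyclohydrolase that starts cofactor synthesis (0.09, edgeR, adjusted p = 0.767), did not pass. In the 6 comparisons of the study none of the 7 passed in edgeR's quasi-likelihood test, and 8 of the 42 tests had an unadjusted p under 0.05, a share near that of all genes (9.89% to 20.1% by comparison). The pterin enzymes of the list also make eye pigments, so their transcripts in heads are not specific to dopamine cells.

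Markers of the head fat body moved with *ple*. All 6 of them (*to*, *Yp1*, *Yp2*, *Yp3*, *Lsp2*, *fit*) were higher in BUT+ than in CYC+ (7.85% of all genes), with a median log2 fold change of 1.49, and their summed level ranged from 73295 to 97915 CPM in the BUT+ libraries and from 17184 to 40539 CPM in the CYC+ libraries. In control libraries the sum ranged from 38206 to 72244 CPM, in BUT- from 26276 to 90638 CPM and in CYC- from 18777 to 66229 CPM. The yolk protein transcripts *Yp1*, *Yp2* and *Yp3* made up 98.65% to 99.41% of the sum in a library, so *to*, *Lsp2* and *fit* had almost no weight in it. In CYC+ vs. control, *Yp1* and *Yp2*, which encode yolk proteins, fell by 0.88 (SE 0.25, edgeR, adjusted p = 0.0432) and 0.91 (SE 0.28, edgeR, adjusted p = 0.0618), and the other 4 markers did not pass. Of all genes, 3.73% were called lower in CYC+ there. Over the 15 lines, *ple* and the summed fat body markers had a Pearson r of 0.84 (permutation p = 0.00015, adjusted p = 0.0008 over 16 relations between the 8 genes and summed markers of fat body or neurons) and a Spearman rho of 0.79 (permutation p = 0.00073, adjusted p = 0.00389). Without the 2 lines farthest from the median, r was 0.71. It was 0.86 among first samples and 0.67 among second samples. Within treatments, as deviations from the treatment mean, it was 0.28 (exact permutation p = 0.423, adjusted p = 0.598), so the relation was mainly one between treatments. It was 0.85 without CYC+ line 1 and BUT- line 1. None of the other 7 genes passed against the fat body markers over the lines (adjusted permutation p 0.309 to 0.947), while within treatments *DopEcR* had an r of -0.67 (exact permutation p = 0.0477, adjusted p = 0.0954). The share of all genes that follows these markers as closely as *ple* is not given here. Whether fat body content had a part in the *ple* difference was not tested.

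**Figure D3:**
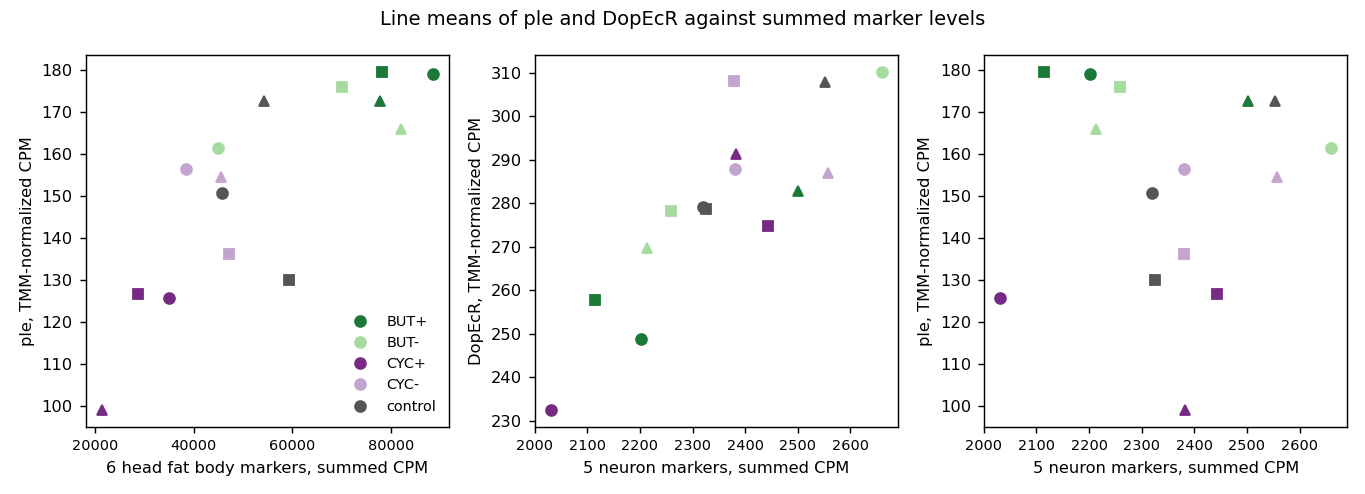
Line means (15 points, colored by treatment, with lines 1, 2 and 3 as circles, squares and triangles) of *ple* or *DopEcR* in TMM-normalized CPM against the summed CPM of 6 head fat body markers or 5 neuron markers. *ple* follows the fat body markers (r = 0.84) and not the neuron markers (r = 0.02), while *DopEcR* follows the neuron markers (r = 0.85).

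*Ddc*, the next enzyme of the pathway, did not follow *ple*. Its treatment means lay between 155 ± 15.7 CPM in CYC- and 169 ± 9.34 in BUT+ (SD, n = 3 lines), and its libraries ranged from 133 to 197 CPM with all treatments overlapping. In the 6 comparisons its log2 fold change lay within -0.07 and 0.08. Among comparisons of treatments its smallest p came from PI+ vs. PI- over both odorants, a contrast of the 2 PI+ with the 2 PI- treatments (log2 fold change 0.07, SE 0.05, edgeR, adjusted p = 0.508). Over the 15 lines, r between *ple* and *Ddc* was 0.07 (permutation p = 0.794) and rho 0.21 (permutation p = 0.451). *Ddc* was also the gene of the 8 whose lines differed most within treatments relative to the 2 samples of a line, with an unadjusted p under 0.05 (edgeR quasi-likelihood F test, adjusted p = 0.237).

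Neither transporter passed in a comparison of treatments. *Vmat* had a mean of 205 ± 9.51 CPM in BUT- and 182 ± 12.3 CPM in CYC+, the extremes among treatments, with libraries from 146 to 228 CPM, and the line means of these 2 treatments did not overlap (21.2% of all genes). Both extreme libraries are the ones that stood apart. Without the first sample of CYC+ line 1 the CYC+ mean was 190.3 ± 11.5 CPM and the line means overlapped, and without the second sample of BUT- line 1 the BUT- mean was 200.5 ± 2.98 CPM. *DAT* had a mean between 12.3 CPM (BUT+ ± 0.23 and CYC- ± 1.59) and 13.5 ± 1.32 CPM in control (SD, n = 3 lines), with libraries from 10.2 to 16.5 CPM. Its log2 fold change against control was below 0 in all 4 selected treatments, from -0.14 in CYC- (SE 0.07, edgeR, adjusted p = 0.387) to -0.06 in BUT-. Its BUT+ lines lay below all control lines, as did 17.3% of genes in either direction, and below all CYC+ lines (25.6% of genes in either direction). Leaving out CYC- line 3 brought *DAT* past the threshold in CYC- vs. control (log2 fold change -0.25, edgeR, adjusted p = 0.0756, range 0.0756 to 0.898 over 31 alternatives). *DAT* did not pass there without the first sample of CYC+ line 1 or without the second sample of BUT- line 1. In these libraries it was at 92.6% and 101% of its median over 30 libraries. The highest *DAT* library was the second sample of control line 3 (16.5 CPM, next in control 13.6). That library was not left out alone, so its own part in the log2 fold changes against control was not tested.

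None of the 4 receptors passed in any comparison of treatments. *Dop1R1*, a receptor that raises cyclic AMP and is needed for learning in the mushroom body, ranged from 43.3 ± 4.64 CPM in CYC+ to 53.3 ± 7.59 CPM in BUT- (SD, n = 3 lines), with libraries from 30.4 to 68.3 CPM. Its mean was 46.6 ± 5.04 CPM in CYC+ and 51.2 ± 4.01 CPM in BUT- without the library of each that stood apart. *Dop1R2* (DAMB), which acts in the mushroom body in forgetting, had the narrowest range of means: 20.5 ± 1.81 CPM in CYC+ to 21.3 ± 2.43 CPM in BUT-, or 21.7 ± 1.32 and 20.1 ± 0.62 CPM without those libraries. Its log2 fold changes in the 6 comparisons lay within -0.06 and 0.05. *Dop2R*, an inhibitory receptor that is also an autoreceptor of dopaminergic neurons, lay between 20.5 ± 1.47 CPM in CYC+ and 22.4 ± 1.85 CPM in CYC-. *DopEcR*, which responds to both dopamine and the steroid ecdysone, lay between 263 ± 17.6 CPM in BUT+ and 294 ± 12.04 CPM in CYC-, and its libraries ranged from 181 to 358 CPM. The line means of *DopEcR* did not overlap between BUT+ and CYC- (23.2% of all genes), and library ranges of all treatments overlapped for each receptor. The smallest p of *Dop2R* was in CYC+ vs. CYC- (log2 fold change -0.13, SE 0.10, edgeR, adjusted p = 0.573, and -0.06 without the first sample of CYC+ line 1) and that of *Dop1R2* in BUT+ vs. BUT- (log2 fold change -0.06, SE 0.10, edgeR, adjusted p = 0.880). The latter turned to 0.033 without the second sample of BUT- line 1.

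**Figure D4:**
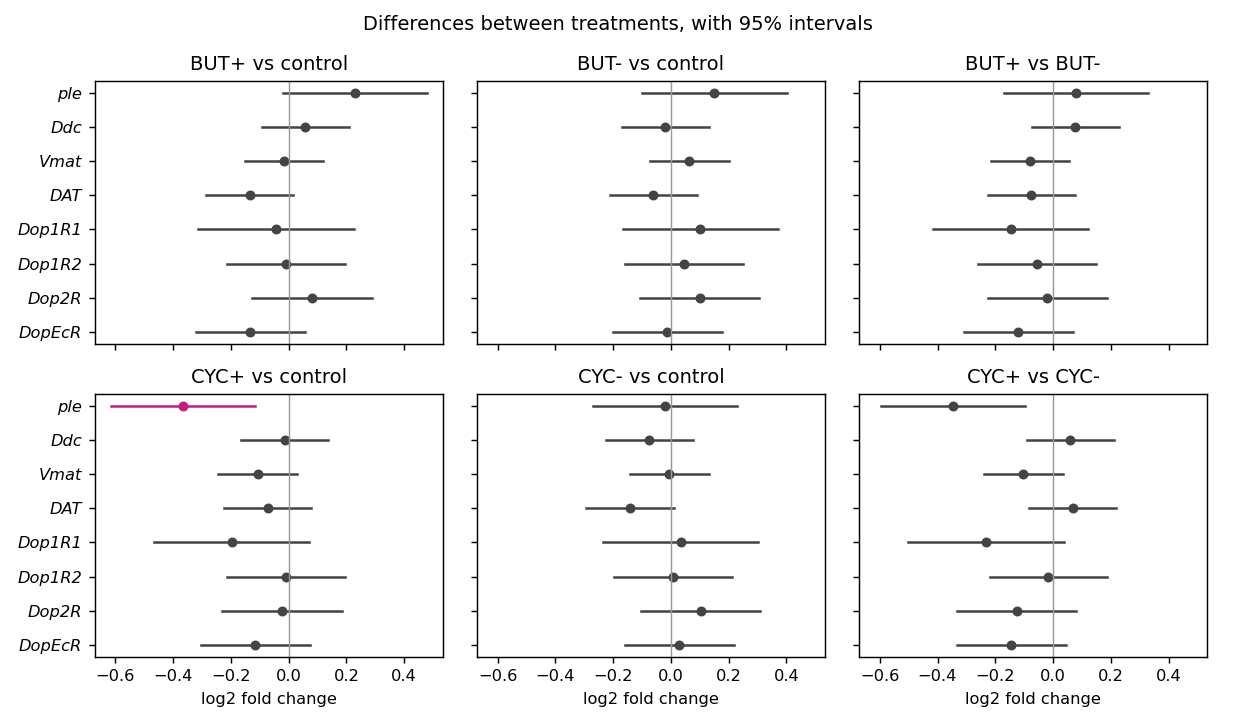
Log2 fold changes of the 8 genes (points) with 95% intervals (bars) in the 6 comparisons of the study. *ple* in CYC+ vs. control (-0.37, magenta) is the only one past the threshold of adjusted p under 0.1, and the intervals of the other genes include 0.

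The intervals bound what these data leave possible. Over the 6 comparisons, the 95% intervals of the 7 genes other than *ple* reached from -0.50 to 0.37 on the log2 scale, both ends set by *Dop1R1*. In the comparisons of BUT+ with control and with BUT-, and of BUT- and CYC- with control, 0 of the 8 genes fell below 0.05 before adjustment, against 14.7%, 9.89%, 16.2% and 14.5% of all genes, and neither edgeR's quasi-likelihood test nor DESeq2 called any. Those comparisons called 2.99%, 0.66%, 4.7% and 3.74% of all genes. In CYC+ vs. control all 8 log2 fold changes were below 0, with a median of -0.09 against 0.01 over all genes, and 7 of them did not pass. Without the first sample of CYC+ line 1, in which neuron markers were low, 5 of the 8 were below 0 and the median was -0.04. *Ddc*, *Dop1R2* and *Dop2R* then had log2 fold changes of 0.0075, 0.06 and 0.04.

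Attraction and repulsion lines were compared over both odorants. In PI+ vs. PI-, 7 of the 8 genes had a negative log2 fold change and *Ddc* a positive one, with a median of -0.08 against 0.00 over all genes, and none passed (1.95% of all genes were called; 0 of 8 had p under 0.05, and DESeq2 called 0). Without either of the libraries that stood apart, 6 of the 8 were negative, with a median of -0.05. By edgeR *Dop1R1* had the smallest p, with a log2 fold change of -0.19 (SE 0.09, edgeR, adjusted p = 0.319; exact two-sided permutation test over 12 line means, p = 0.075). *DopEcR* had -0.13 (SE 0.07, edgeR, adjusted p = 0.320; exact permutation p = 0.06), and all 6 of its PI+ lines lay below the mean of the PI- lines of their odorant, or 5 of 6 without the second sample of BUT- line 1. *Vmat* had -0.09 (SE 0.05, edgeR, adjusted p = 0.342; exact permutation p = 0.075). The permutation test could reach 0.005 with its 400 arrangements. Without the first sample of CYC+ line 1 the log2 fold changes of *Dop1R1*, *DopEcR* and *Vmat* were -0.15, -0.09 and -0.06, and without the second sample of BUT- line 1 they were -0.15, -0.09 and -0.07. Over the 31 alternatives adjusted p ranged from 0.181 to 0.6999 for *Dop1R1*, from 0.205 to 0.650 for *DopEcR* and from 0.177 to 0.658 for *Vmat*. Summed neuron markers had a median of 2203 CPM in BUT+ and 2278 CPM in BUT- libraries, and of 2382 CPM in CYC+ and 2532 CPM in CYC- libraries. All 12 selected lines against the 3 control lines gave log2 fold changes from -0.10 (*DAT*) to 0.07 (*Dop2R*), none past the threshold in edgeR or DESeq2 and none with p under 0.05, where 4.38% of all genes were called.

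Second and first samples of a line differed in 1 of the 8 genes, *DopEcR*. In that contrast 25.8% of all genes were called, so 1 of 8 is not above the background. *DopEcR* was higher in second samples than in first samples by 0.17 on the log2 scale (SE 0.05, edgeR, adjusted p = 0.0145). The difference of *DopEcR* was 0.13 without the first sample of CYC+ line 1 (edgeR, adjusted p = 0.0128) and 0.15 without the second sample of BUT- line 1 (edgeR, adjusted p = 0.0330). *Ddc* (0.08, SE 0.03) and *Dop1R2* (0.12, SE 0.05) had unadjusted p under 0.05 and did not pass (edgeR, adjusted p = 0.105 and 0.115). Lines of the same treatment were called different in none of the 8 genes by edgeR, with 1 of 8 at an unadjusted p under 0.05, and in 7.99% of all genes.

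*Vmat*, *Dop1R1*, *Dop1R2* and *Dop2R* varied together over the lines. Of the 28 pairs of the 8 genes, 10 had a correlation past an adjusted permutation p of 0.1, and all 6 pairs among these 4 genes were among them. *Vmat* and *Dop1R1* had a Pearson r of 0.91 over 15 lines (permutation p = 1e-05, the smallest that 100000 permutations can give, adjusted p = 0.00014) and a Spearman rho of 0.84 (permutation p = 0.00018, adjusted p = 0.00289). For the 6 pairs, r lay between 0.75 and 0.91 and rho between 0.68 and 0.84, and r without the 2 lines farthest from the median lay between 0.71 and 0.85. Among first samples r was 0.73 to 0.90, among second samples 0.76 to 0.92, and as deviations from the treatment means 0.84 to 0.96. Without CYC+ line 1 and BUT- line 1, the lines of the libraries that stood apart, r of the 6 pairs was 0.61 to 0.85 over 13 lines. Their rho was 0.52 to 0.78, and the largest adjusted permutation p was 0.113 for r and 0.295 for rho. Many other genes were as close. Ranked by r among the 9239 other genes tested, each of the 4 stood between place 4 and place 342 from another (median 112). The points share libraries and normalization, and these 4 genes were singled out after their values had been seen.

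*ple* and *Ddc* stood outside this group. *ple* had r from -0.03 to 0.56 with the other 7 genes. Its one pair past the threshold, with *Vmat* (r = 0.56, permutation p = 0.0289, adjusted p = 0.09; rho = 0.45, permutation p = 0.097, adjusted p = 0.209), rested on 2 lines, without which r was 0.23, and within treatments r was 0.32. *Ddc* had r from 0.00 to 0.49 and no pair past the threshold. The remaining pairs past it were *Vmat* with *DAT* (r = 0.55), *Dop1R1* with *DopEcR* (r = 0.62) and *Dop1R2* with *DopEcR* (r = 0.58), with adjusted permutation p of 0.0923, 0.0528 and 0.0785. By rank correlation only the 6 pairs among *Vmat*, *Dop1R1*, *Dop1R2* and *Dop2R* passed.

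**Figure D5:**
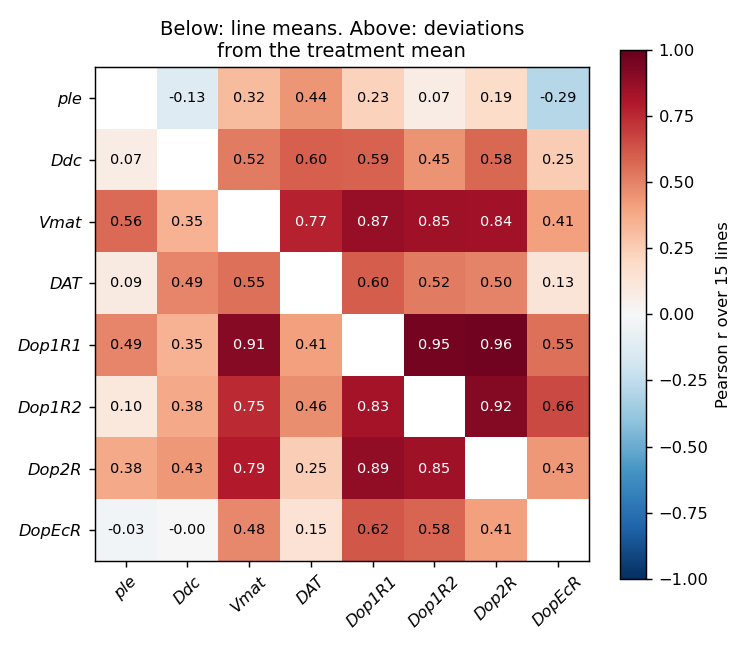
Pearson r between the 8 genes over 15 lines, of log2 line means below the diagonal and of their deviations from the treatment mean above it, with color from -1 to 1. The block of *Vmat*, *Dop1R1*, *Dop1R2* and *Dop2R* has r of 0.75 to 0.91 below and 0.84 to 0.96 above the diagonal, and *ple* has r of at most 0.56.

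Neuron markers moved with the receptors and *Vmat*. In the relations with their summed level, added after the data had been seen, 5 of the 8 genes passed. The share of all genes tested that would pass is not given here, so this count has no background beside it. r was 0.85 for *DopEcR* (permutation p = 0.00011, adjusted p = 0.0008), 0.84 for *Dop1R2* (permutation p = 0.00011, adjusted p = 0.0008), 0.81 for *Dop1R1* (permutation p = 0.00032, adjusted p = 0.00128), 0.72 for *Dop2R* (permutation p = 0.0028, adjusted p = 0.00896) and 0.66 for *Vmat* (permutation p = 0.00677, adjusted p = 0.0181). Spearman's rho was 0.80, 0.79, 0.76, 0.61 and 0.53 in the same order, with adjusted permutation p of 0.00389, 0.00389, 0.00568, 0.0592 and 0.126, and r without the 2 farthest lines was 0.73, 0.82, 0.71, 0.66 and 0.46. As deviations from the treatment mean, r was 0.74 to 0.90 for these 5 genes. This relation, unlike that of *ple* with the fat body markers, was thus also seen among lines of the same treatment. *Ddc* (r = 0.56) and *DAT* (r = 0.46) passed within treatments too (exact permutation test, adjusted p = 0.0954 for each). The deviations include CYC+ line 1 and BUT- line 1, and their r without these lines is not given here. Without CYC+ line 1 and BUT- line 1, r of the line means was 0.73 for *DopEcR*, 0.77 for *Dop1R2*, 0.65 for *Dop1R1*, 0.59 for *Dop2R* and 0.38 for *Vmat* (13 lines). Over the same 13 lines r was 0.46 for *DAT*, above that of *Vmat*, 0.26 for *Ddc* and -0.26 for *ple*. For *ple*, r with the neuron markers was 0.02 (permutation p = 0.947) and rho -0.15 (permutation p = 0.603). The part of neuronal content in the levels of the receptors was not tested.

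The genes nearest to each of the 8 over the line means were named by the highest Pearson r among the other 9239 genes tested, as a description. Nearest to *ple* were *LanA*, a laminin of basement membranes (r = 0.91), and *Lsp2*, a storage protein of the fat body (r = 0.90). *LanA* averaged 130 ± 8.06 CPM in BUT+ and 87.5 ± 15.2 CPM in CYC+, and *Lsp2* 28.7 ± 14.97 CPM and 2.15 ± 3.18 CPM (SD, n = 3 lines). Nearest to *Ddc* were *Su(H)*, the transcription factor of Notch signaling (r = 0.84), and *Sap130* (r = 0.82). *Vmat* was nearest to CG43902 (r = 0.94) and CG6812 (r = 0.92), and *DAT* to *dco*, the clock kinase doubletime (r = 0.84), and CG1636 (r = 0.76). The receptors were nearest to *Mid1* (r = 0.98) and CG42750 (r = 0.96) for *Dop1R1*, *sff* (r = 0.94) and the glucose transporter *Glut1* (r = 0.93) for *Dop1R2*, *comt*, the NSF of synaptic vesicle fusion (r = 0.94), and *Deaf1* (r = 0.94) for *Dop2R*, and the ubiquitin ligase *Cbl* (r = 0.90) and the cohesin subunit *SA* (r = 0.89) for *DopEcR*.

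Other genes of dopamine use were called mainly in BUT+ vs. CYC+, as were genes in general. That comparison called 16.5% of all genes, and the 6 comparisons of the study called 0.66% to 7.02%. In the list of breakdown, recycling and cuticle use, 6 of 8 genes were tested, of which 2 rose and 1 fell in BUT+ vs. CYC+ (16.5% of all genes called) and 1 rose in the 6 comparisons of the study. *b* (black) makes the beta-alanine that is joined to dopamine, and rose in CYC+ vs. control by 0.34 (SE 0.08, edgeR, adjusted p = 0.0221), where *ple* fell. *b* averaged 135 ± 10.3 CPM in CYC+ and 106 ± 10.2 CPM in control, and it rose by 0.21 in all selected lines vs. control (SE 0.07, edgeR, adjusted p = 0.0927). In BUT+ vs. CYC+, *b* fell by 0.25 (SE 0.08, edgeR, adjusted p = 0.0540), while *AANAT1*, which acetylates dopamine, rose by 0.29 (SE 0.08, edgeR, adjusted p = 0.0282) and *yellow-f2*, a dopachrome-converting enzyme of melanin synthesis, by 0.43 (SE 0.14, edgeR, adjusted p = 0.0468). *e* (ebony) and *t* (tan), which join and release beta-alanyl dopamine, did not pass in any comparison, with an unadjusted p under 0.05 in 0 and 1 of 11.

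Among 10 genes of receptor signalling, *krz*, the nonvisual arrestin, fell by 0.18 in BUT- vs. control (SE 0.06, edgeR, adjusted p = 0.0915), and *Galphas*, the stimulatory G protein subunit, fell by 0.13 in BUT+ vs. CYC+ (SE 0.04, edgeR, adjusted p = 0.0393). Of all genes, 4.7% were called in BUT- vs. control and 16.5% in BUT+ vs. CYC+, against 1 of these 10 in each. The adenylyl cyclase *rut* and the phosphodiesterase *dnc* did not pass in any, with an unadjusted p under 0.05 in 0 and 2 of 11. Among 6 genes of other monoamines, *Tbh*, which makes octopamine, rose by 0.29 in BUT+ vs. CYC+ (SE 0.11, edgeR, adjusted p = 0.0757), and *prt*, a vesicular transporter of Kenyon cells, fell by 0.20 (SE 0.08, edgeR, adjusted p = 0.0937), where 16.5% of all genes were called. The serotonin genes *Trhn* and *SerT* did not pass in any, although *Trhn* had an unadjusted p under 0.05 in 6 of 11 comparisons, *SerT* in 0. *Trhn* came nearest in CYC+ vs. control (log2 fold change 0.27, SE 0.09, edgeR, adjusted p = 0.109). Of the cell type markers, *alrm*, of astrocyte-like glia, fell in BUT+ vs. control by 0.24 (SE 0.07, edgeR, adjusted p = 0.0658), in BUT- vs. control by 0.25 (SE 0.07, edgeR, adjusted p = 0.0476) and in all selected lines by 0.19 (SE 0.05, edgeR, adjusted p = 0.0485), and *ninaE*, the main rhodopsin, fell by 0.25 in BUT+ vs. CYC+ (SE 0.09, edgeR, adjusted p = 0.0628). These comparisons called 2.99%, 4.7%, 4.38% and 16.5% of all genes. None of the 5 neuron markers passed in any comparison of treatments by edgeR, with 1 unadjusted p under 0.05, that of *elav* in PI+ vs. PI-.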

How the data were processed

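RNA of 30 pools of female heads was sequenced. The authors trimmed reads with Trim Galore and Cutadapt, aligned them with STAR to the release 6 genome, and deposited read counts per gene as whole numbers with no normalization. The counting tool and its use of strand are not given in the sources used here. Every sample column was used. Positions and exon lengths came from an Ensembl annotation of the same assembly, matched by identifier for 17242 of 17471 genes.

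The 9240 genes that reached 1 CPM in 15 or more libraries entered edgeR 4.0.16 under R 4.3.3 (TMM, quasi-likelihood fit with 5 treatment means, lines pooled as in the study's methods), with Benjamini-Hochberg adjustment over all genes tested and a threshold of 0.1. Standard errors were derived from the log2 fold change and F (fold change over root F). Line means were also tested by exact permutation, and correlations by permutation. The fit was tested on simulated counts. Samples of a line differed beyond sampling noise. limma 3.58.1 and DESeq2 1.42.0 served as alternatives, with other filters and normalization, summed or left-out lines, and blocks. The smallest count of the 8 genes in a library was 263 (*DAT*), where counting error is largest.

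Named genes were the 8, the nearest 2 genes to each, and every called gene of fixed lists. The 8 genes and the lists were chosen with earlier results of these data known. In the lists, *stw* was not matched by symbol, *AANAT1* was matched by an older symbol, and *Trhn* and *Vajk1* were matched by a current symbol.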

Additional observations from a re-analysis of the deposited data

Results flagged for a closer look

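Within the 6 libraries of a treatment, 6 values lay far from the other 5 by Dixon's criterion at the 95% level, the gap to the nearest value over the whole range. With 40 groups of gene and treatment, chance flags about 1 in 20, or 2. Of the 6, 4 came from the second sample of BUT- line 1, which was highest of its treatment for *Ddc* (197 CPM, next 161), *Vmat* (228 CPM, next 205), *Dop1R2* (27.6 CPM, next 21.1) and *DopEcR* (358 CPM, next 290). *DopEcR* was lowest in the first sample of CYC+ line 1 (181 CPM, next 259). *DAT* was highest in the second sample of control line 3 (16.5 CPM, next 13.6). No explanation was tested.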

How the results depend on the processing

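The comparisons of BUT+ with control, of BUT+ with BUT- and of BUT- with control called 0 of the 8 genes under all 31 alternatives each. In CYC+ vs. control the count fell from 1 to 0 without a filter, at adjusted p under 0.05, with only the libraries compared, with libraries of a line summed, with line as a random block in limma, in second samples only and, in an alternative added after seeing the data, without the first sample of CYC+ line 1. It was also 0 with line number as a replicate block (*ple*, -0.37, adjusted p = 0.102). It was 0 to 1 over the 15 fits that left out a line, and lost in 9. In CYC+ vs. CYC- it was 1 (*ple*) in first samples only, and in CYC- vs. control 0 to 1 over the fits that left out a line. BUT+ vs. CYC+ and the test over any of the 5 treatments went from 1 to 0 in second samples only. Over all alternatives *ple* had log2 fold changes of -0.53 to -0.23 in CYC+ vs. control and of 0.41 to 0.81 in BUT+ vs. CYC+. *Dop1R2* in BUT+ vs. BUT- turned to 0.0021 in first samples only, to 0.033 without the second sample of BUT- line 1 (added) and to 0.039 without BUT- line 1, and ranged from -0.12 to 0.039 over the fits that left out a line. The number of pairs of genes past the threshold was 7 to 13, and 6 without CYC+ line 1 and BUT- line 1 (added), where 13 lines were left. The causes were not tested.

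Line numbers did not pair the lines of different treatments (mean correlation of deviations for the same number -0.06, lowest -0.39), and the replicate block changed no call but that of *ple*. Pooled heads limit inference to these 3 lines per treatment, and the 2 samples of a line are not separate populations.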
